A study of Mus musculus with 21 samples.

Results

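Expression of 10 genes of the circadian clock was followed in mammary tumours and hematopoietic stem cells (HSC) of sedentary and physically active MMTV-PyMT mice. The genes were Arntl, Clock, Per1, Per2, Per3, Cry1, Nr1d1, Nr1d2, Dbp and Tef, taken by symbol. Each deposited table listed 10 of the 10, out of 20371 genes listed in any table. MMTV-PyMT mice carry a viral oncogene driven in mammary epithelium, and all 7 groups shared this genotype. Tumours came from sedentary and from active mice at week 12 and at week 18. HSC were sorted from sedentary and from active mice at week 12, and at week 14 from sedentary recipients of a transplant from active mice (transplant HSC). The labels do not say which cells were transplanted or how HSC were gated. Each group had 3 libraries, labelled as biological replicates. The labels give the week but no hour of sampling, so the hour of the day and the group cannot be told apart in any comparison of these genes. Whole tumours are mixtures, in which fewer cells of a type and less RNA per cell cannot be told apart.

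The circadian clock is a feedback loop of transcription and translation that runs in most cells. CLOCK and ARNTL (also called BMAL1) form a dimer that binds E-boxes and activates Per and Cry genes, whose proteins return to the nucleus and inhibit the dimer. The dimer also activates Nr1d1 and Nr1d2, nuclear receptors that repress Arntl at sites shared with the ROR activators. Dbp and Tef are activators of the PAR bZIP family that bind D-boxes and carry the rhythm to output genes. Because most of these transcripts rise and fall over the day, their level in a single sample depends on the hour at which it was taken.

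Promoter sequences of 9 of the 10 genes were matched in the RefSeq table of build GRCm38.p6, as 14 windows that run from 250 bases before to 50 bases after a gene start. The 3 stretches below are shown because Per1, Cry1 and Per3 are the genes whose values the comparisons turn on. Each ends at the base before the gene start, and capitals mark clock motifs found on either strand. Per1 lies at chr11:69098699-69098948 on the plus strand, Cry1 at chr10:85185055-85185304 on the minus strand and Per3 at chr4:151044666-151044915 on the minus strand.
Per1: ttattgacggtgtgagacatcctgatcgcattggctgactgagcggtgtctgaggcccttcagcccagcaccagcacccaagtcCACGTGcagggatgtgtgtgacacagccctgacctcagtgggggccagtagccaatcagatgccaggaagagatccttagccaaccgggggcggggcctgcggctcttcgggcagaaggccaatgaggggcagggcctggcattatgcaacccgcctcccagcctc
Cry1: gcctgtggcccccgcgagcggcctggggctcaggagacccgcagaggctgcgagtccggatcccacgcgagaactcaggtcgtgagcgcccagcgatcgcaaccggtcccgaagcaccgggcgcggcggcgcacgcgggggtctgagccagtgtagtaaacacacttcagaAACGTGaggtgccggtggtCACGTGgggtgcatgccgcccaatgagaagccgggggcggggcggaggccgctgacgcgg
Per3: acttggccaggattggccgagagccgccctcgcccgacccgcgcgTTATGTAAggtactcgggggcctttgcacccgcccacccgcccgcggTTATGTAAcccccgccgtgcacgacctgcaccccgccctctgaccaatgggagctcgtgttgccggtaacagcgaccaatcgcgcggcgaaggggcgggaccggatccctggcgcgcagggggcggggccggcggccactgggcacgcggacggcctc

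The E-box CACGTG, which reads the same on both strands, was found in windows of Per1, Cry1 and Tef, and in 7.15% of all 32851 promoter windows. Its variant CACGTT, read as AACGTG on the other strand, was found in Cry1 and Nr1d1 and in 4.69% of all windows. In Cry1 the variant and the E-box start at positions -79 and -60, counted from the gene start. The D-box variant TTATGTAA, or TTACATAA on the other strand, occurred in Per3 and in 0.938% of all windows, and Per3 held 2 copies, at positions -205 and -158. The D-box TTACGTAA, which reads the same on both strands, was in none of the windows of these genes and in 0.119% of all. A ROR element, TAGGTCA or TGACCTA on the other strand, was found in Arntl and in 2.61% of all windows. It lies just after the gene start, within chr7:113207530-113207559 on the plus strand. It is shown as a site of the kind through which NR1D proteins are known to repress Arntl, and only the exact letters were searched.
Arntl: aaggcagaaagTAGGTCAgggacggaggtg

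Values are normalized counts, that is gene counts divided by 1 size factor per library. Recovered depth was 20838963 to 28973775 reads in tumours and 16406889 to 72417315 in HSC, where replicate 3 of every group was the deepest library, at 58500940 reads or more. Epcam, an epithelial marker, stood at 254 to 752 CPM (reads scaled to the library's total) in tumours and at most 1.04 in HSC. Kit stood at 171 to 246 CPM in HSC and at 190 to 788 CPM in tumours, so that it does not separate the materials. The HSC libraries also held transcripts of 7 of 7 neutrophil and myeloid precursor markers. The content of 1 library is unclear, since active HSC replicate 2 appears in both HSC tables with different reads at 13086 of 13380 shared genes and at 10 of the 10 clock genes. Its column is headed differently in each HSC table, with the same library number in brackets. Whether both columns hold the same library could not be told. The other 2 active libraries differ between the tables at 4 genes and at none of the clock genes. Each HSC table is used with its own version of active replicate 2, values over 9 HSC libraries use the version beside the sedentary libraries, and the text gives the main values and counts with the other version too. Active tumour replicate 3 of week 12 also stood apart, with summed T cell markers at 353 and B cell markers at 776 CPM, against at most 14.8 and 6.4 in the other 5 tumours of that week.

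Within tumours, the level per length was highest for Per1, at 13.8 ± 6.05 RPKM (SD, n = 12), that is CPM per kb of exon, followed by Nr1d2 at 9.04 ± 1.42 and Tef at 8.18 ± 2.37. Cry1, Clock, Nr1d1 and Arntl came next, between 5.78 and 3.44. Per2 at 2.53 ± 0.849, Per3 at 2.13 ± 0.384 and Dbp at 1.47 ± 0.676 were lowest. For 9 of the 9 neighbouring pairs in this order, the library ranges of the pair overlapped. HSC had another order on the same scale. Cry1 led at 14.5 ± 1.96 (SD, n = 9), Per1 followed at 7.33 ± 1.15 and Clock at 2.56 ± 0.295, and the ranges of these 3 genes did not overlap. Dbp was again the lowest, at 0.394 ± 0.145, and its range overlapped that of Per3 at 1.08 ± 0.361. Taking the other version of active replicate 2, the means were 14.3 for Cry1, 7.22 for Per1, 2.53 for Clock and 0.454 for Dbp, and Nr1d2 at 2.63 stood above Clock.

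**Figure D1:**
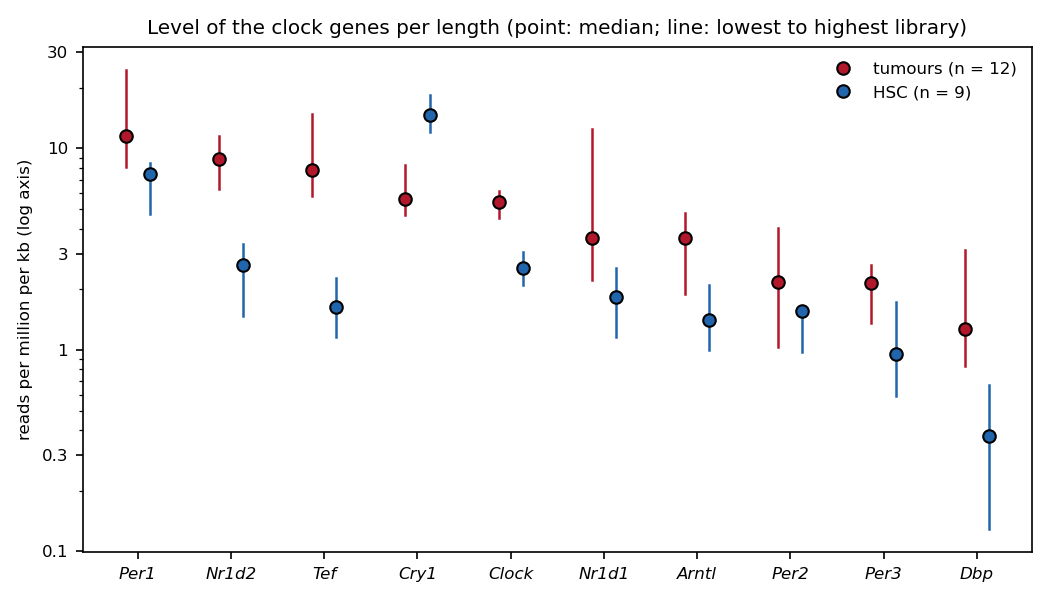
Level of the 10 clock genes per length, in CPM per kb of exon on a log axis, with genes ordered by their mean in tumours. Points are medians and lines run from the lowest to the highest of 12 tumour and 9 HSC libraries, and Cry1 is the gene whose HSC range lies above its tumour range.

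In GRCm38 (GENCODE M21) Per1 spans chr11:69095217-69109960 on the plus strand, Per3 chr4:151003652-151044665 on the minus strand and Cry1 chr10:85131700-85185064 on the minus strand. The RefSeq start used for the Per1 stretch lies inside that span. Exons of Dbp and Nr1d1 overlap genes on the opposite strand, Sphk2 over 18.0% and Thra over 8.55% of the exon bases. The library kit keeps strand, but whether the counting used it was not given in the sources used here, so values of Dbp and Nr1d1 may include reads of these neighbours. Dbp was also the gene with the fewest reads, 8 to 226 per library.

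In the week 12 tumours, the comparison of active with sedentary mice showed no clock gene that differed beyond the spread between libraries. By limma with Benjamini-Hochberg adjustment over all genes, 0 of the 10 passed an adjusted p of 0.05, where 0.517% of 19162 genes did. The count was also 0 with edgeR, with DESeq2 and at an unadjusted p under 0.05, a level that 4.09% of all genes reached. Of the log2 fold changes, 4 of 10 were positive and the median was -0.03, beside 0.01 over all genes. The groups overlapped for 10 of the 10 genes, while 9.13% of all genes had groups that did not overlap.

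The activators were close between the groups. Arntl measured 749, 385 and 603 in sedentary and 689.7, 625 and 743 in active tumours, and the active values lay inside the sedentary range (log2 fold change 0.29, 95% interval -0.41 to 1.00). Clock ran from 1619.8 to 1849 in sedentary and from 1735 to 1967 in active tumours, a log2 fold change of 0.07 with an interval of -0.30 to 0.43. Clock was one of the steadiest of the 10 genes in tumours.

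Among the repressors, Per1 measured 1331, 2774 and 1195 in sedentary and 1289, 1541 and 2181 in active tumours. One sedentary tumour held the highest and another the lowest Per1 value of the week, and the log2 fold change was -0.0084 (interval -1.01 to 0.99). Per2 was 329, 365 and 439 against 551, 297 and 292. The highest and the lowest Per2 values both came from active tumours (log2 fold change -0.05). Per3 was lower on average in active tumours, at 466 ± 59.7 against 573 ± 49.8 (SD, n = 3), with a log2 fold change of -0.30 and an adjusted p of 0.970 by limma. A single active tumour with 535 reached into the sedentary range of 523 to 623. Cry1 differed by a log2 fold change of 0.07.

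Nr1d1 held the widest spread of the 10 genes at this time. It measured 491, 315 and 297 in sedentary tumours and 165, 168 and 955 in active tumours. Active replicates 1 and 2 lay below every sedentary tumour and active replicate 3 lay above every one. The log2 fold change of Nr1d1 was -0.26 with an interval of -2.15 to 1.63, it was -1.10 without active replicate 3, and edgeR gave 0.21. Active replicate 3 is the tumour with the high T cell and B cell markers described above, and its 8 adipocyte markers summed to 12254 CPM against 531 to 3096 in the other tumours of the week. The part of these cells in the Nr1d1 value was not tested. Nr1d2, the close relative of Nr1d1, was 1222 ± 126 in sedentary and 979 ± 138 in active tumours (log2 fold change -0.32, adjusted p 0.970 by limma). Its lowest value, 844, came from the same tumour in which Nr1d1 was highest.

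The output activators did not separate the groups either. Dbp was 62.4, 101 and 67.4 in sedentary and 80.2, 70.1 and 125 in active tumours, and Tef was 1485 ± 213 against 1418 ± 107. At the same time the 10 skeletal muscle markers summed to 2678 to 5607 CPM in sedentary and 22.5 to 65.2 in active tumours of week 12. The part of muscle RNA in the clock gene values was not tested.

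**Figure D2:**
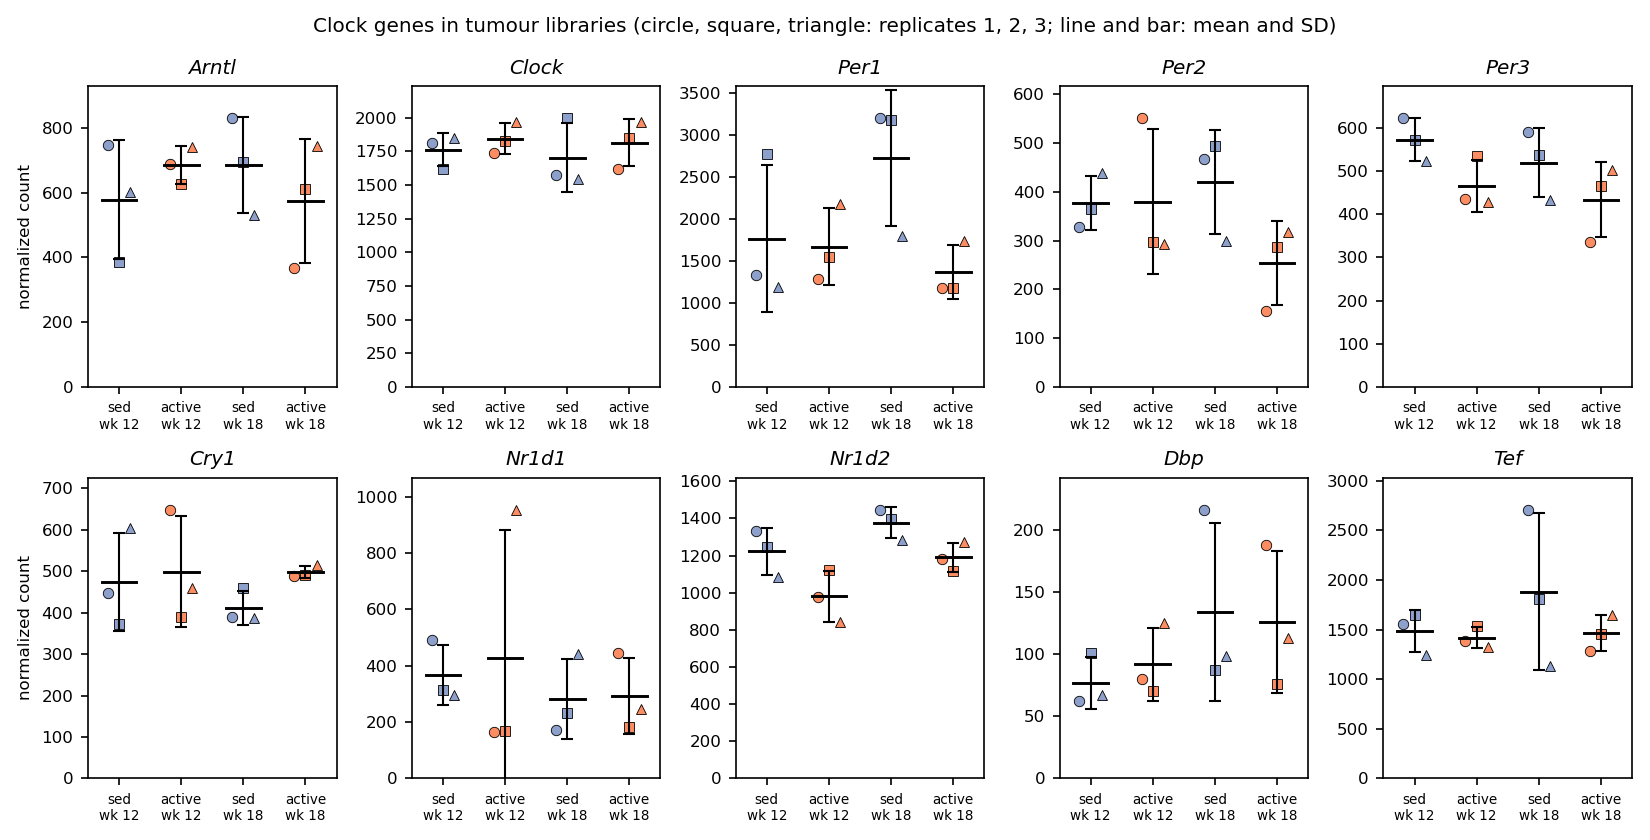
Normalized counts of the 10 clock genes in the 12 tumour libraries as deposited, by group (sed: sedentary, wk: week). The libraries of week 12 and of week 18 were normalized apart. Each point is 1 library and the lines show the mean and SD. The sedentary week 18 values of Per1 (1796 to 3199.7) all lie above the active ones (1176 to 1735), and active replicate 3 of week 12 stands at 955 for Nr1d1.

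At week 18, Per1 was the clock gene with the largest difference between active and sedentary tumours. Per1, whose transcript responds to light, stress hormones and other acute signals as well as to the clock, measured 3199.7, 3184 and 1796 in sedentary and 1178, 1176 and 1735 in active tumours. The groups did not overlap, and the gap between them, from 1735 to 1796, was small beside the spread within each. The log2 fold change of Per1 was -0.98 (interval -1.76 to -0.19), a level 1.97-fold lower in active tumours. The unadjusted p was 0.0230 and the adjusted p 0.824 by limma, so Per1 did not pass. Over the alternatives its adjusted p ranged from 0.171 with DESeq2 to 0.944 when single libraries were left out. In the authors' deposited table Per1 was also lower in active tumours, with an adjusted p of 0.206.

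The count of clock genes that passed at week 18 was 0 of 10 by limma, by edgeR and by DESeq2, beside 0% of 18939 genes by limma. Only Per1 had an unadjusted p under 0.05, a level that 5.97% of all genes reached. With the replicate number as a block, 0 of 10 had one, and that of Per1 was 0.0703. Groups did not overlap for Per1 and Nr1d2, both lower in active tumours, and for Cry1, which was higher. These are 3 of 10 genes, where the share over all genes was 13.6%. The median log2 fold change of the 10 genes was -0.24, beside 0.01 over all genes, and 3 of 10 were positive.

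The other Period genes were also lower on average in active tumours, and neither passed. Per2 measured 468, 495 and 298 in sedentary and 156, 288 and 318 in active tumours, and 1 active tumour exceeded the lowest sedentary one. Its log2 fold change was -0.76 (interval -1.66 to 0.14, adjusted p 0.824 by limma). Per3 was 519.8 ± 80.2 against 434 ± 87.7, with overlapping groups and a log2 fold change of -0.27. In the sedentary group, replicate 3 held the lowest value of Per1, Per2 and Per3. Among active tumours, replicate 1 was the lowest for Per2 and Per3.

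Cry1, the partner of the PER proteins in repression, was 391, 459 and 387 in sedentary and 488, 490.4 and 514 in active tumours. All active values were higher, by a log2 fold change of 0.28 (interval -0.10 to 0.65, adjusted p 0.824 by limma). The 3 active values differed by little, with an SD of 14.6. Nr1d2 was 1447, 1396 and 1285 against 1179.8, 1119 and 1272. The highest active value of Nr1d2 was just below the lowest sedentary one, and the log2 fold change was -0.21. Nr1d1 showed no such shift, with 281 ± 142 against 292 ± 136.

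Arntl was 830.1, 694 and 532 in sedentary and 367, 610.2 and 744 in active tumours, with a log2 fold change of -0.29 and overlapping groups. Clock differed by 0.10 on the log2 scale. Tef was 2709, 1809 and 1132 in sedentary tumours, the widest spread of this gene in any group, and 1466 ± 181 in active ones. Dbp was 134 ± 71.7 against 126 ± 57.2. Sedentary replicate 1 of week 18 held the highest Tef and the highest Dbp level of all 12 tumours, 14.8 and 3.11 RPKM. In that tumour skeletal muscle markers summed to 26.2 CPM, against 264 and 555 in the other sedentary tumours of week 18. Its adipocyte markers summed to 46.5, against 615 and 971, while its erythroid markers, at 421, were the highest of the group. Active replicate 1 had 559 CPM of fibroblast markers, against 1975 and 2993 in the other active tumours. The part of these cells in the clock gene values was not tested. The 6 genes of a glucocorticoid response list summed to 402, 341 and 258 CPM in the sedentary and 214, 249 and 308 in the active tumours of week 18. Immediate early genes summed to 415 to 596 against 419 to 517, and their part and that of the hormone response in the Per1 values were not tested.

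Whether the effect of activity differed between the weeks was tested as an interaction over the 12 tumours. It passed for 0 of the 10 clock genes by limma, edgeR and DESeq2, and 0.0104% of 19241 genes passed by limma. The count at an unadjusted p under 0.05 was also 0, beside 6.33% of all genes. For Per1 the difference of the log2 fold changes was -0.97 with an interval of -2.15 to 0.22 (adjusted p 0.770 by limma). For Per2 it was -0.71 (interval -1.81 to 0.39). The larger Per1 effect at week 18 was thus not shown to differ from the effect at week 12. On simulated data the interaction test by limma recovered 38.5% of 200 genes changed by 2 on the log2 scale. It recovered 69% at a log2 change of 3, and the Per1 difference was smaller than either change.

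Between week 12 and week 18, 0 of 10 clock genes passed in sedentary or in active tumours, by limma, edgeR or DESeq2, and 0 had an unadjusted p under 0.05, beside 4.97% and 12.1% of all genes. Over all genes 0% passed by limma in both comparisons, of 18968 and 19188 genes. On a common scale Per1 in sedentary tumours was 1289.7, 2687 and 1162 at week 12 and 3140.1, 3102 and 1749 at week 18 (log2 fold change 0.69, interval -0.35 to 1.74). Dbp differed by 0.71 in sedentary and 0.40 in active tumours. The groups overlapped for each of the 10 genes in both comparisons, where 10.5% and 24.8% of all genes had groups that did not overlap. The weeks come from different tables, so week and any batch between them cannot be told apart.

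**Figure D3:**
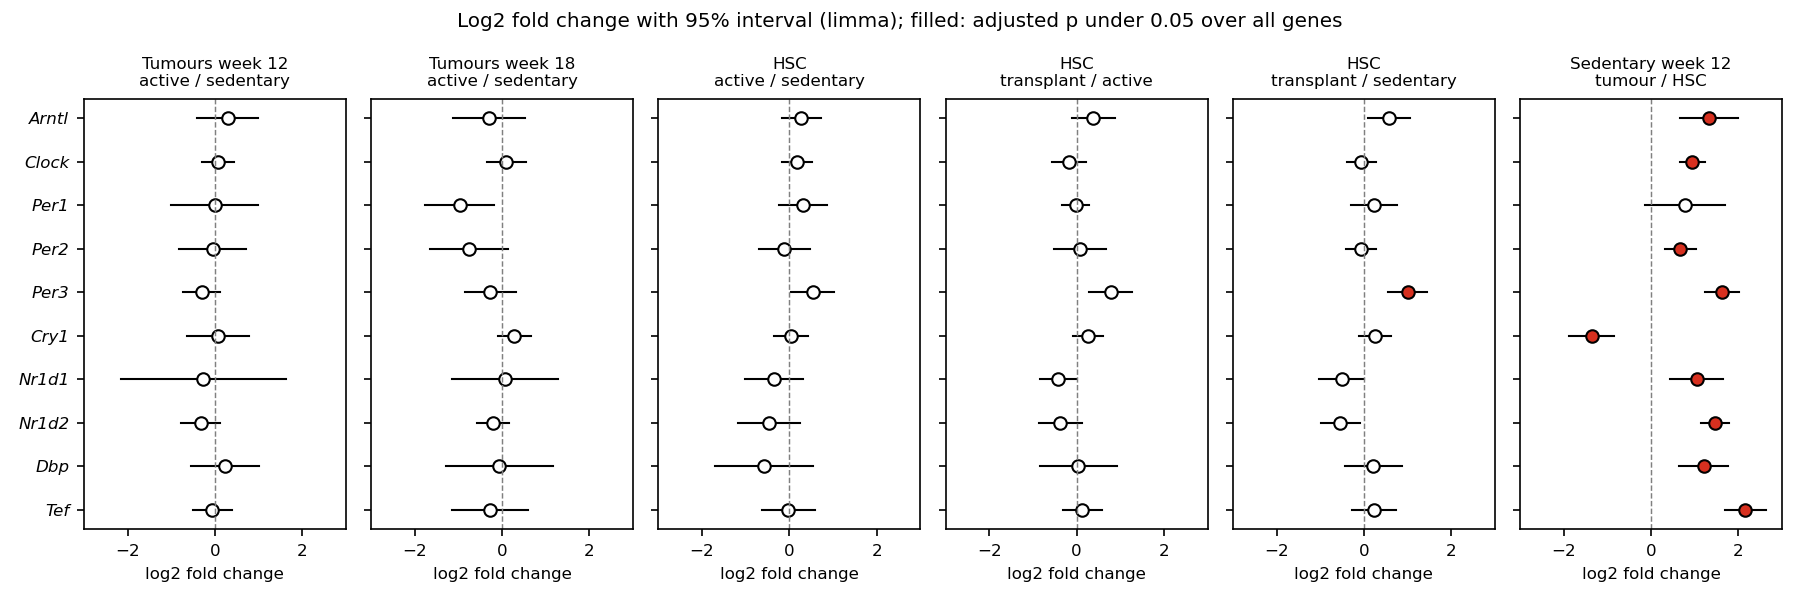
Log2 fold change of the 10 clock genes in 6 comparisons, first group over second, with 95% intervals from limma. Filled points passed an adjusted p of 0.05 over all genes. Per3 is filled in transplant against sedentary HSC (1.01), and 9 genes are filled between tumour and HSC.

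In HSC, Per3 was the clock gene that passed the test, being higher in transplant than in sedentary HSC. Per3, a Period family member that is less essential to the core loop than Per1 and Per2, measured 169, 212 and 226 normalized counts in sedentary and 482, 347 and 394 in transplant HSC, with reads of both groups scaled together. Every transplant library was above every sedentary one, and the means differed 2.01-fold (log2 fold change 1.01, interval 0.56 to 1.45). The adjusted p was 0.0276 by limma, 0.00946 by edgeR and 1e-04 by DESeq2. Per3 was 1 of 10 clock genes that passed, where 11.7% of 13329 genes did, so the share was near that of all genes.

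The call of Per3 depended on the libraries and on the model. It was lost in 4 of 6 fits without 1 library, with adjusted p up to 0.0942 by limma, and kept without sedentary replicate 3 (0.0393) and without transplant replicate 3 (0.0492). With the replicate number as a block the adjusted p was 0.112 by limma, and with replicates 1 and 2 of each group alone it was 0.0589. The log2 fold change stayed between 0.88 and 1.11 in all these fits. Transplantation and week 14 against week 12 change together and cannot be told apart. The 7 neutrophil and myeloid precursor markers summed to 2019 to 3023 CPM in sedentary and to 8397 to 10542 in transplant HSC. The 7 HSC markers summed to 266 to 302 and 279 to 306, a sum in which Kit alone stood at 171 to 246 CPM. Hlf, another of the 7 HSC markers, was lower in every transplant than in every sedentary library, so the sum does not stand for each marker. The part of these precursors in the Per3 difference was not tested.

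The other genes of the transplant and sedentary HSC did not pass by limma, though 3 of the 10, Arntl, Per3 and Nr1d2, had an unadjusted p under 0.05, beside 31.7% of all genes. Arntl was 229, 215 and 285 in sedentary and 454, 327 and 317 in transplant HSC, with no overlap (log2 fold change 0.58, adjusted p 0.110 by limma). Nr1d2, a repressor of Arntl, was 440.1, 523 and 474 against 290.2, 292 and 417, also with no overlap and in the opposite direction (log2 fold change -0.54, adjusted p 0.107 by limma). It passed in 1 fit, without transplant replicate 3, at a log2 fold change of -0.71 and an adjusted p of 0.0359. Nr1d1 was also lower on average, with 154, 189 and 228 against 123, 164 and 114, with 1 overlapping library. Groups did not overlap for 3 of 10 genes, beside 38.8% of all genes. The median log2 fold change of the 10 was 0.22, beside -0.00046 over all genes, and 6 of 10 were positive. Clock and Per2 both had a log2 fold change of -0.06, and Cry1, Per1, Dbp and Tef had log2 fold changes between 0.22 and 0.26.

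**Figure D4:**
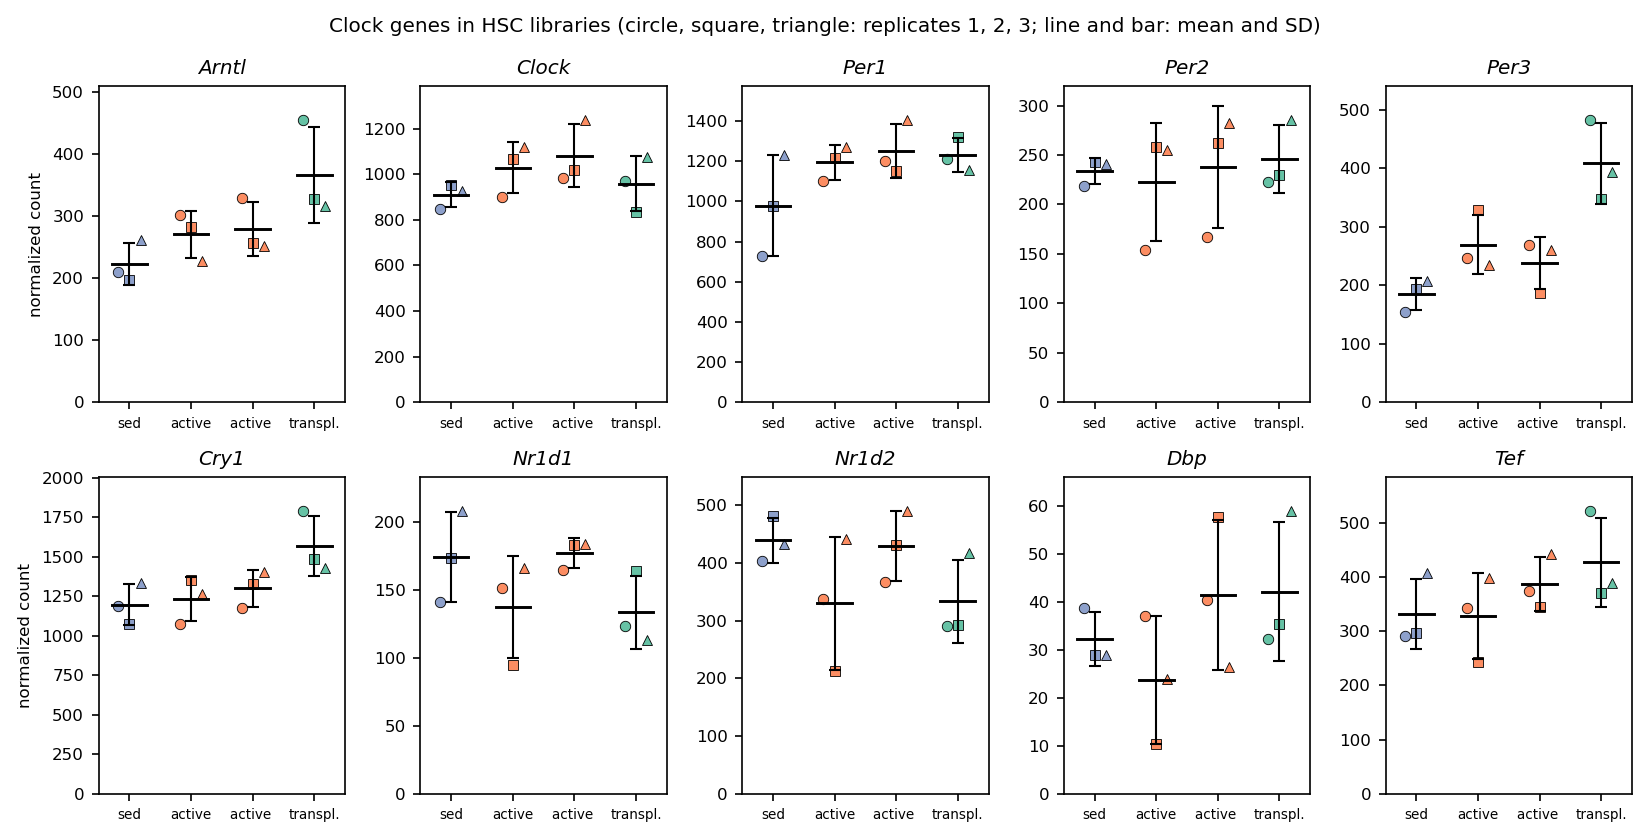
Normalized counts of the 10 clock genes in HSC as deposited, by group and table. The first pair of columns is the table of sedentary (sed) and active libraries and the second pair the table of active and transplant (transpl.) libraries, which were normalized apart. Points are libraries and lines show mean and SD. The transplant values of Per3 (348 to 483) lie above all others, and active replicate 2 (squares) differs between the tables, as in Nr1d2 (212 and 431).

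Active against sedentary HSC gave 0 of 10 clock genes past the threshold by limma, edgeR and DESeq2, and 0% of 13513 genes by limma. At an unadjusted p under 0.05, 1 of the 10 was counted, Per3, where 9.27% of all genes were. The count was 0 of 10 and the share of all genes 2.67% with the other version of active replicate 2. Per3 measured 155, 194 and 207 in sedentary and 246, 328 and 235 in active HSC. The groups did not overlap (log2 fold change 0.53, interval 0.05 to 1.02, adjusted p 0.475 by limma), as for 19.7% of all genes. With the other version of active replicate 2, the log2 fold change of Per3 was 0.22 and the groups overlapped for 10 of the 10 genes, while 6.17% of all genes did not overlap. Active replicate 2 as deposited with the sedentary libraries had the highest Per3, 328, and also the highest sum of neutrophil and myeloid precursor markers, 12265 CPM against 3865 and 6540 in the other active libraries. In its other version that sum was 2103 and Per3 was 188. Among transplant libraries, replicate 1 had the highest Per3 and the lowest of these sums, 8397 CPM. The part of these precursors in the Per3 values was not tested.

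The remaining genes of active HSC were spread around no difference, with 5 of 10 positive and a median of 0.0071 beside 0.0037 over all genes. Nr1d2 was 403, 480.5 and 433 in sedentary and 337, 212 and 441 in active HSC (log2 fold change -0.47), and the lowest value was that of active replicate 2. Dbp was lowest in the same library, at 10.3, which is 8 reads. With the other version of this library Nr1d2 differed by -0.17 and Dbp by 0.17, a change of direction. Per1 was 727, 979 and 1233 against 1101, 1214 and 1269, and Cry1 differed by 0.04.

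Transplant against active HSC again placed Per3 first. Per3 was 268, 188 and 260.2 in active and 483, 348 and 394 in transplant HSC, 1.71-fold higher with no overlap (log2 fold change 0.78, interval 0.28 to 1.28). The adjusted p was 0.201 by limma and 0.115 by edgeR, and 0.0163 by DESeq2. DESeq2 called 1 of the 10 clock genes and 1134 of 13633 genes. The authors' deposited table gave a log2 fold change of 0.77 with an adjusted p of 0.0191. With the other version of active replicate 2 the log2 fold change of Per3 was 0.47 and the adjusted p 1.000 by limma. By limma 0 of 10 clock genes and 0.0513% of 13633 genes passed, and 2 of the 10, Per3 and Nr1d1, had an unadjusted p under 0.05, beside 17.8% of all genes. Count and share both depended on active replicate 2, and were 0 of 10 and 2.47% of all genes with its other version. The neutrophil and myeloid precursor markers summed to 2103 to 6536 CPM in active and to 8397 to 10542 in transplant HSC. Active replicate 2 held 12265 in its version beside the sedentary libraries. The part of these precursors in the Per3 difference was not tested.

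Cry1 and Nr1d1 also had groups that did not overlap in this comparison, which makes 3 of 10 beside 25.2% of all genes. Cry1 was 1173, 1329 and 1402 in active and 1786, 1487 and 1429.8 in transplant HSC (log2 fold change 0.27). Nr1d1 was 165, 184 and 184 against 123, 164 and 114, lower in every transplant library (log2 fold change -0.42, adjusted p 0.281 by limma). Arntl differed by 0.38 and Nr1d2 by -0.38, with overlapping groups. The groups overlapped for each of the 10 genes with the other version of active replicate 2, beside 6% of all genes that did not overlap. The log2 fold changes were then -0.14 for Nr1d1, 0.22 for Cry1, 0.30 for Arntl, -0.07 for Nr1d2 and 0.80 for Dbp, which was 0.04 with the version in the table. The comparisons of transplant with sedentary and of transplant with active HSC share the transplant libraries, and those with active HSC share the active ones.

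Between materials, sedentary tumours of week 12 and sedentary HSC differed for most clock genes, as they did for most genes. Of the 10 clock genes, 9 passed by limma, 8 of them higher in tumours, where 73% of 12426 genes passed and 75.3% had an unadjusted p under 0.05. Tef differed most, with 1479.6, 1573 and 1197 in tumours against 276, 284 and 394 in HSC, 4.47-fold (log2 fold change 2.16, interval 1.69 to 2.63). Per3 was 3.08-fold higher in tumours, at 591, 546 and 503 against 147, 186 and 200.4. Nr1d2, Arntl, Dbp and Nr1d1 were higher by log2 fold changes of 1.47, 1.33, 1.21 and 1.05, Clock by 0.95 and Per2 by 0.67.

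Cry1 was the clock gene that was lower in tumours. It measured 425, 355 and 581 in tumours and 1128, 1025 and 1291 in HSC, with no overlap (log2 fold change -1.36, interval -1.88 to -0.85, adjusted p 0.00146 by limma). Per1 did not pass by limma, at 1262, 2646 and 1149.7 against 691, 936 and 1195 (log2 fold change 0.77, adjusted p 0.109), and DESeq2 called it at 0.0234. Its log2 fold change was 0.39 without sedentary tumour replicate 2, the library with 2646. Tissue, RNA extraction method and table change together here and cannot be told apart. Groups did not overlap for 9 of 10 genes, beside 78.2% of all genes, and the median log2 fold change was 1.13, beside 0.05.

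A wider clock list of 25 genes was also counted, which is not confined to components of the loop and holds, for example, Tspan4, Por and Nampt. By limma, edgeR and DESeq2, 0 of the 25 passed in the tumour comparisons of activity or week or in their interaction. By limma at most 0.517% of all genes passed in these comparisons. At most 2 of the 25 had an unadjusted p under 0.05 by limma, beside 4.09% to 12.1% of all genes. In active against sedentary HSC 0 of 24 passed by limma and edgeR and 1 by DESeq2, which called 274 of 13513 genes. In transplant against active HSC 0 of 24 passed by limma and edgeR and 3 by DESeq2, which called 1134 of 13633 genes. At an unadjusted p under 0.05 by limma there were 6 and 4, beside 9.27% and 17.8% of all genes. These were 2 and 1 of 23 with the other version of active replicate 2, beside 2.67% and 2.47% of all genes. In transplant against sedentary HSC, 2 of 23 rose and 1 fell by limma, beside 11.7% of all genes that passed, a share near that of the list. EdgeR called 4 of the list and 2566 of 13329 genes, and DESeq2 called 6 of the list and 3167 genes. Rora, an activator of Arntl that binds the ROR element, was 11.4, 14 and 24.3 in sedentary and 195, 85.0 and 80.7 in transplant HSC (log2 fold change 2.73, adjusted p 0.0211 by limma). Bhlhe40, a repressor that binds E-boxes, was 1124, 1047 and 1072 against 2016, 2081 and 2393 (log2 fold change 1.00, adjusted p 0.0113 by limma). Hlf, a PAR bZIP relative of Dbp and Tef that is also a marker of HSC, was 679, 791 and 707 against 303, 309 and 387 (log2 fold change -1.13, adjusted p 0.0137 by limma). The groups overlapped for none of these 3 genes, and with the replicate block 0 of 23 passed by limma. Without single libraries the count ranged from 0, without sedentary replicate 2 or transplant replicate 2, to 5, without sedentary replicate 3, and it was 1 without sedentary replicate 1. In active HSC as deposited beside the transplant libraries, Hlf was 349, 790.4 and 799.7, and active replicate 2 held 188 in its version beside the sedentary libraries. In tumours against HSC, 12 of 24 were higher and 9 lower, beside 73% of all genes that passed in either direction, among them Rora at a log2 fold change of 6.26, Tspan4 at -2.93, Timeless at -2.67 and Nfil3, a repressor at D-boxes, at -2.41. The median of the list was 0.49 there and 0.0093 in transplant against sedentary HSC, beside 0.05 and -0.00046 over all genes.

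The spread within groups differed between the clock genes. In tumours the SD of log2 values within groups was 0.89 for Nr1d1, which placed it at the 89.0th percentile of 13638 genes with a mean of at least 50. Dbp followed at 0.56, Per1 at 0.48 and Per2 at 0.44. Clock and Nr1d2 were steady, both at 0.14 and near the 13.0th percentile. The median over the 10 genes was 0.37, beside 0.30 over all genes ranked, and 6 of 10 exceeded the latter. In HSC, where Dbp was below the mean of 50, the median of the other 9 was 0.24, beside 0.22 over 10834 genes. Nr1d2 with 0.36 and Nr1d1 with 0.34 were highest there, and Clock was lowest at 0.15. The SDs of Nr1d2 and Nr1d1 were 0.22 and 0.23 with the other version of active replicate 2, so that their place as the highest rests on that library.

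Covariation of the clock genes between libraries was examined over 45 pairs in each material, with permutation tests adjusted over the 45. In tumours 0 of 45 pairs passed, with 3 at an unadjusted p under 0.05 and a lowest adjusted p of 0.430. Per1 and Tef had the highest Pearson's r, 0.66 (rho 0.57, permutation p 0.0129, n = 12), which was 0.27 without the 2 tumours farthest from the median of Per1. Per3 and Tef had r = 0.61 (rho 0.73, permutation p 0.0387), which was 0.74 without the 2 tumours farthest in Per3 and 0.76 as deviations from group means. Per2 and Per3 had r = 0.60 (rho 0.54, permutation p 0.0428), which was 0.53 without the 2 tumours farthest in Per2. Between Per2 and Per3 the r was 0.96 over the 6 tumours of week 18 and -0.29 over the 6 of week 12. Between Arntl and Per3 it was 0.98 at week 18 and -0.36 at week 12. These values within a week, each over 6 tumours of both activity groups, were picked from the 45 pairs and were not tested. Nr1d1, a direct target of the same dimer as Per2, had r = -0.47 with Per2 (rho -0.44, permutation p 0.126).

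Over the 9 HSC libraries also 0 of 45 pairs passed, with 6 at an unadjusted p under 0.05. Arntl and Per3 had r = 0.86 (rho 0.82, exact permutation p 0.00318, adjusted p 0.143), and r = 0.79 without the 2 libraries farthest in Arntl. Taken as deviations from group means, r for Arntl and Per3 was 0.61 (permutation p 0.153). Nr1d1 and Nr1d2 had r = 0.70 (rho 0.77, exact permutation p 0.0385), and r = 0.72 without the 2 libraries farthest in Nr1d1. Arntl and Nr1d2 had r = -0.68 (rho -0.77, exact permutation p 0.0421), and r = -0.56 without the 2 farthest in Arntl. As deviations from group means r was 0.52 for Nr1d1 and Nr1d2 (permutation p 0.370) and -0.48 for Arntl and Nr1d2 (permutation p 0.231), and 1 of the 45 pairs in place of 6 had an unadjusted p under 0.05. With the other version of active replicate 2, 2 pairs passed, Arntl with Per3 and Arntl with Nr1d2. Without active replicate 1, 1 pair passed, Arntl with Cry1. The 9 libraries share a depth split, with replicate 3 deepest, and over replicates 1 and 2 alone r for Arntl and Per3 was 0.91.

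**Figure D5:**
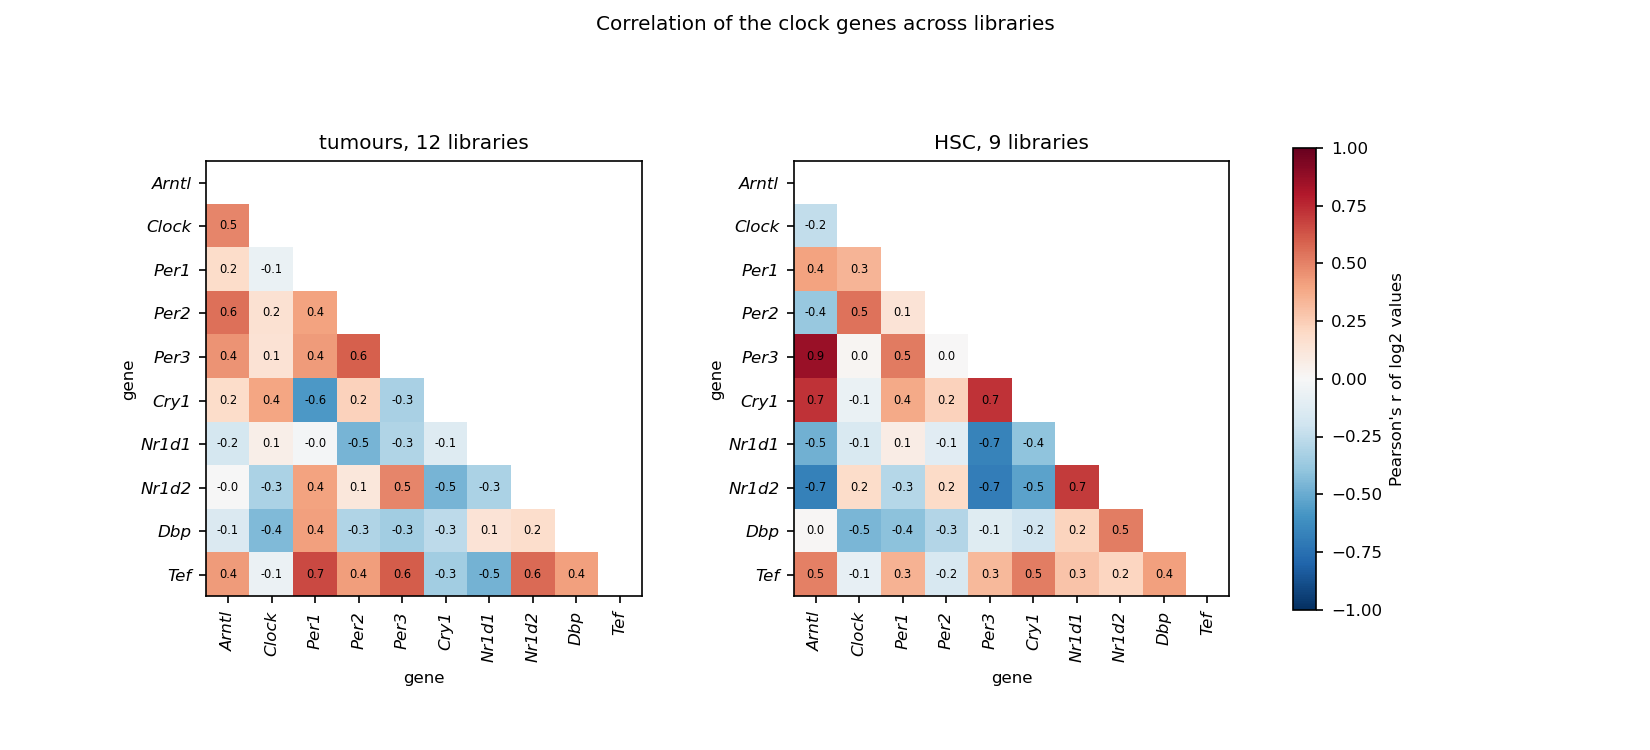
Pearson's r between the log2 values of each pair of clock genes over 12 tumour and 9 HSC libraries, with r printed in each cell and coloured from -1 to 1. No pair passed the adjusted permutation test, and Arntl with Per3 in HSC has the highest r, 0.86.

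A clock score per library set 7 genes driven by the dimer (Per1, Per2, Per3, Nr1d1, Nr1d2, Dbp and Tef) against Arntl and Clock, on deviations from group means. It is the mean of the 7 minus the mean of Arntl and Clock, each of which weighs more than any of the 7. The r of these genes with the score is therefore in part set by how the score was built. Over 12 tumours the score followed Clock (r = -0.82), Arntl (r = -0.69) and Dbp (r = 0.66), whereas Per2 (r = -0.35), Per3 (r = -0.21) and Nr1d1 (r = -0.07) went against their sign in it. Over 9 HSC libraries Nr1d1 (r = 0.79) and Nr1d2 (r = 0.63) followed it and Per3 (r = -0.78) went against it. Of 13628 other genes in tumours, Npm1 (r = 0.97), Eif4enif1 (0.96), C1qbp (0.93), Thoc5 (0.92) and Pogz (0.91) were most like the score and Adssl1 (-0.96), Srxn1 (-0.89), Vps13a (-0.88), Vps13b (-0.88) and Tusc2 (-0.87) most opposed to it. Of 10825 in HSC, with active replicate 2 as deposited beside the sedentary libraries, Eefsec, Cradd, Xlr3b, Sppl2b and Abcf1 were most like it, with r from 0.97 to 0.95. Rmnd5b, Timp2, Nudt18, Akirin1 and Armcx3 were most opposed, with r from -0.95 to -0.93. These are the extremes of many genes over few libraries and are given as a description.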

How the data were processed

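RNA-seq of 12 tumour and 9 HSC libraries was deposited in 4 tables. The deposited signal per gene and library is a count divided by 1 size factor per library, as the values themselves show: whole reads were recovered for 100% of values (tolerance 0.01). The deposited tables also hold the authors' p-values, log2 fold changes, a fold as a ratio, a -log10 p and a score column, of which the log2 fold change and adjusted p are quoted where named. Genes are mapped to mm10 per the submitters' processing notes, and the aligner, counter and use of strand are not given in the sources used here. Libraries were poly(A) RNA made with a stranded kit, with tumour and HSC RNA extracted by different methods, per the labels' protocols.

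Within a table, limma 3.58.1 in R 4.3.3 was run on log2(value + 1) for genes whose mean reached 1 in one of the groups, with Benjamini-Hochberg adjustment over all genes and a threshold of 0.05. A fold change is on the log2(value + 1) scale and understates changes of low genes. Comparisons across tables used recovered reads scaled together by the median of ratios. Intervals are 95% and not adjusted. EdgeR 4.0.16 and DESeq2 1.42.0 on recovered reads served as alternatives, beside another pseudocount, other filters, TMM scaling, the replicate number as a block and leaving out each library. The 10 clock genes were all named, of the wider list those that passed, at most 5 per comparison by p (1 is not reported here), and of genes of like pattern the 5 highest and 5 lowest by correlation with the clock score. Genes and lists were chosen with earlier results of these data known. Same-numbered libraries deviated together in the week 18 tumours (correlations 0.164, 0.159 and 0.139) and between transplant and active HSC (0.105, 0.116 and 0.318), from a shared number only, and the block changed no call of a clock gene there. Correlations used 100000 permutations, or all of them for HSC. Exon lengths and positions are from GENCODE M21. On simulated data for transplant against sedentary HSC with 13329 genes, 86.5% of 200 genes changed by 2 on the log2 scale were recovered. In the week 12 tumours, with 19162 genes, 0% were recovered at a log2 change of 2 and 76.5% at 3.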

Additional observations from a re-analysis of the deposited data

How the results depend on the processing

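Every change of direction described here concerns a clock gene that did not pass, and the cause was not tested. In transplant against sedentary HSC, where 1 clock gene passed (Per3), the count was 0 with the replicate block, 0 with replicates 1 and 2 only and 0 to 2 without single libraries. The libraries paired there share a number only. DESeq2 called 1 clock gene in transplant against active HSC, where it called 1134 of 13633 genes. Of the 45 HSC pairs, 2 passed with the other version of active replicate 2 and 0 to 1 without single libraries. With edgeR and DESeq2, Nr1d1 was 0.21 and 0.20 in the week 12 tumours and -0.14 and -0.17 in the interaction. EdgeR gave 0.014 for Per2 in the week 12 tumours, and DESeq2 -0.0017 for Cry1 between the weeks in active tumours. With the other version of active replicate 2, Cry1 was -0.0086, Dbp 0.17 and Tef 0.10 in active against sedentary HSC. With replicates 1 and 2 only, Per1 was 0.11 and Dbp -0.50 in transplant against active HSC, and Dbp -0.11 in transplant against sedentary HSC. Leaving out single libraries gave these ranges of log2 fold changes. In the week 12 tumours they were -0.14 to 0.26 for Cry1, -0.0052 to 0.45 for Dbp, -1.10 to 0.16 for Nr1d1, -0.24 to 0.37 for Per1, -0.35 to 0.11 for Per2 and -0.18 to 0.023 for Tef. At week 18 they were -0.40 to 0.34 for Dbp, -0.28 to 0.45 for Nr1d1 and -0.60 to 0.027 for Tef. For the interaction they were -0.037 to 0.15 for Clock, -0.64 to 0.11 for Dbp, -0.091 to 1.17 for Nr1d1, -0.095 to 0.21 for Per3 and -0.54 to 0.085 for Tef. Between weeks in sedentary tumours they were -0.16 to 0.022 for Clock, -0.33 to 0.021 for Cry1 and -0.037 to 0.60 for Tef, and in active tumours -0.084 to 0.055 for Clock, -0.13 to 0.24 for Cry1, -0.55 to 0.71 for Nr1d1, -0.23 to 0.063 for Per3 and -0.043 to 0.13 for Tef. In active against sedentary HSC they were -0.036 to 0.13 for Cry1, -0.24 to 0.13 for Per2 and -0.18 to 0.18 for Tef. In transplant against active HSC they were -0.24 to 0.31 for Dbp, -0.082 to 0.063 for Per1, -0.15 to 0.22 for Per2 and -0.019 to 0.23 for Tef. In transplant against sedentary HSC they were -0.14 to 0.041 for Clock, -0.046 to 0.38 for Dbp and -0.17 to 0.0042 for Per2. Counts over all genes depended on the tool. DESeq2 called 208 genes against 99 by limma in the week 12 tumours, 52 against 0 at week 18, 172 against 2 for the interaction, 172 and 886 against 0 between weeks, 274 against 0 and 1134 against 7 in the comparisons with active HSC, and 3167 against 1553 in transplant against sedentary HSC, where the block left 95. Of all values recomputed, 1206 kept their direction and their side of the threshold, 75 turned, 6 lost a call and 3 gained one. Genes that did not pass and again did not pass count among the 1206. The 6 lost calls were those of Per3 in transplant against sedentary HSC. The 3 libraries a group limit the precision, and the unadjusted 95% intervals, where given, show how wide the range around an estimate is.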

Other observations

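Npas2, which can stand in for Clock as the partner of Arntl, was singled out after its values were seen. It was 9.49, 1.34 and 3.31 normalized counts in active and 128, 35.3 and 20.3 in transplant HSC, and the groups did not overlap. The authors' deposited table gave it a log2 fold change of 3.80 with an adjusted p of 0.00300. In sedentary HSC it was 3.25, 0 and 7.93 with reads scaled together, and transplant against sedentary gave an adjusted p of 0.0648 by limma. Active replicate 2 held 86.1 in its version beside the sedentary libraries, so that the value of Npas2 in the active group depends on the version used.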
